A study of Mus musculus with 36 samples.

Results

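Lrig1, Krt79, Gata6 and Plet1 are identity genes of the junctional zone and infundibulum, the part of the hair follicle that lies above the bulge and opens onto the skin surface. They were taken by name as the rows of these 4 genes, out of 23903 genes listed in either count table, and all 4 passed the filter on low counts in both tables. Lineage-traced keratinocytes from mouse tail skin were sampled before and after wounding in 2 populations, each at 6 time points with 3 libraries per time point, which gave 36 libraries. Each library was made from 150 sorted tdTomato+ cells by a modified Smart-seq2 protocol, in which polyadenylated RNA is copied with an oligo(dT) primer and amplified. The question was whether the progeny of follicle stem cells, in the wound or still in their niche, carry a memory of a first injury into a second one.

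All animals carried a Rosa26-fl/STOP/fl-tdTomato reporter together with either Lrig1-EGFP-ires-CreERT2, which labels upper follicle cells (here Lrig1 GL cells), or Lgr5-EGFP-ires-CreERT2, which labels cells of the lower bulge and hair germ (Lgr5 GL cells). Mice of both sexes received topical 4-hydroxytamoxifen once at 6 to 8 weeks of age and were wounded 1 week later with a full-thickness 2 mm punch in the tail. The groups were 0w, then 1w, 2w, 4w and 8w pw1, counted in weeks after the first wound, and 1w pw2, counted after a second overlapping injury made at 8 weeks. The sorted cells came from a zone holding the wound bed and the distal follicles. The label marks the progeny of cells that used the Lrig1 or Lgr5 locus at labelling, and does not report whether a cell uses that locus now. All groups after 0w were also older and further from labelling, with no unwounded group of matched age, so time after injury, age and time since labelling cannot be told apart. In Lrig1 GL mice the labelling cassette sits at the Lrig1 locus itself, and its part in the Lrig1 counts was not tested. The paper counts the replicates of this time course as mice, while the labels do not say which animal a library came from. The p-values measure the spread between the 3 libraries of a group.

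Lrig1 is a transmembrane protein with leucine-rich repeats and immunoglobulin-like domains that restrains signalling by ErbB receptors, and it marks stem cells of the junctional zone. Those cells maintain the infundibulum and the sebaceous gland. Krt79 is a type II keratin of the infundibulum and sebaceous duct, and Gata6 is a zinc-finger transcription factor of the duct and the upper pilosebaceous unit. Plet1 is a glycosylphosphatidylinositol-anchored surface protein found in the upper isthmus and junctional zone. On GRCm38, with GENCODE M21, Lrig1 lies on the minus strand of chromosome 6 (94604529 to 94700158), Krt79 on the minus strand of chromosome 15 (101929332 to 101940324) and Plet1 on the plus strand of chromosome 9 (50494525 to 50505482). Values are counts over all exons of a gene.

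The promoters are shown because Gata6, the GATA factor among the 4 genes, varied with other members across libraries. These were Krt79 in both populations and Lrig1 in Lrig1 GL cells, as described further on. RefSeq windows from 250 bases before to 50 bases after the transcription start (GRCm38.p6) are given for 3 of the 4 genes, without Gata6. They are written 5′ to 3′ on the gene's strand. Both strands were searched for the letters AGATAA, a core form of the GATA motif, and a match is set in capitals. The Krt79 window is chr15:101940275-101940574 (minus strand), that of Lrig1 is chr6:94700096-94700395 (minus strand) and that of Plet1 is chr9:50494275-50494574 (plus strand).
Krt79: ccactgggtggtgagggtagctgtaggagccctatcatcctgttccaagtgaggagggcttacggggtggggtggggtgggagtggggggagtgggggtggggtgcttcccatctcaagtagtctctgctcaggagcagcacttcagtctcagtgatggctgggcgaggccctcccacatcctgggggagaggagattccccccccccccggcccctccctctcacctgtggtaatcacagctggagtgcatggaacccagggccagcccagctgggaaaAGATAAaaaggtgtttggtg
Lrig1: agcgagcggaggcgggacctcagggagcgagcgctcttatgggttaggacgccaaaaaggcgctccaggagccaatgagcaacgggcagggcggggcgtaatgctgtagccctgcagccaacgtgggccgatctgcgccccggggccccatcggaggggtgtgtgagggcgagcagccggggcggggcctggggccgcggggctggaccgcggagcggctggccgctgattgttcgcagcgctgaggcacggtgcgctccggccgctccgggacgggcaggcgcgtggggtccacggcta
Plet1: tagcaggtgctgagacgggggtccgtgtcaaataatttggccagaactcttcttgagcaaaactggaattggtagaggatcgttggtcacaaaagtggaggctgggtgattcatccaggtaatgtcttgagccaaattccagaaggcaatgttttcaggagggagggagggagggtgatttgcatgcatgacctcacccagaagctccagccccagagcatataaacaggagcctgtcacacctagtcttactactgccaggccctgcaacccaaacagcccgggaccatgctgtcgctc
The Krt79 window held AGATAA once, beginning at position 31 after the start, and the windows of Lrig1 and Plet1 held no match. In Lrig1 GL libraries the correlation with Gata6 was higher for Lrig1 (r = 0.69) than for Krt79 (r = 0.57). Whether Gata6 acts on any of these genes was not tested. Of 32851 promoter windows of this length, 3672 (11.2%) held AGATAA or its reverse complement, so a match of this kind is common. The G and C content was 62.0% for Krt79, 73.0% for Lrig1 and 52.3% for Plet1.

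Depth ranged from 765252 to 3365666 counts in genes per Lrig1 GL library and from 1297798 to 6960537 per Lgr5 GL library, and levels are given as CPM, in which each library's counts are scaled to the same total with TMM library sizes. A count of 3, the limit that a count of 0 allows, corresponds to 1.01 to 3.39 CPM in Lrig1 GL libraries and 0.389 to 2.92 CPM in Lgr5 GL libraries. The transcript Gm12415 took 12% to 52.1% of the counts in Lgr5 GL libraries, and mitochondrial genes took 3.15% to 14.4% of the counts in Lrig1 GL libraries. Summed over 4 defining keratinocyte markers, keratinocyte levels were 8987 to 27015 CPM in Lrig1 GL and 5949 to 21140 CPM in Lgr5 GL libraries. The summed immune markers did not exceed 33.3 CPM, melanocyte markers 25.6 CPM and Merkel cell markers 10.5 CPM in any library. These sums hold only markers that passed the filter on low counts. In Lrig1 GL libraries that was 1 of 6 immune, 1 of 4 melanocyte and 1 of 3 Merkel cell markers. In Lgr5 GL libraries it was 2 of each list. Fibroblast markers reached 45.9 CPM in Lrig1 GL libraries, where 2 of 4 passed the filter, and 377 CPM in Lgr5 GL libraries, where all 4 did.

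Divided by exon length, Krt79 was the highest of the 4 genes in both populations. Its mean over 18 libraries was 470 CPM per kb in Lrig1 GL and 155 CPM per kb in Lgr5 GL cells. Plet1 followed at 46.6 and 23.4 CPM per kb, Lrig1 at 21.4 and 18.7 CPM per kb, and Gata6 was lowest at 7.19 and 0.951 CPM per kb. From the lowest to the highest Lgr5 GL library, Krt79 ranged 228-fold, Lrig1 6.57-fold and Plet1 8.44-fold, and Gata6 ran from 1 count (0.181 CPM) to 23.5 CPM. In Lrig1 GL libraries the same spans were 6.0-fold for Krt79, 21.9-fold for Gata6, 5.19-fold for Lrig1 and 5.39-fold for Plet1.

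**Figure D1:**
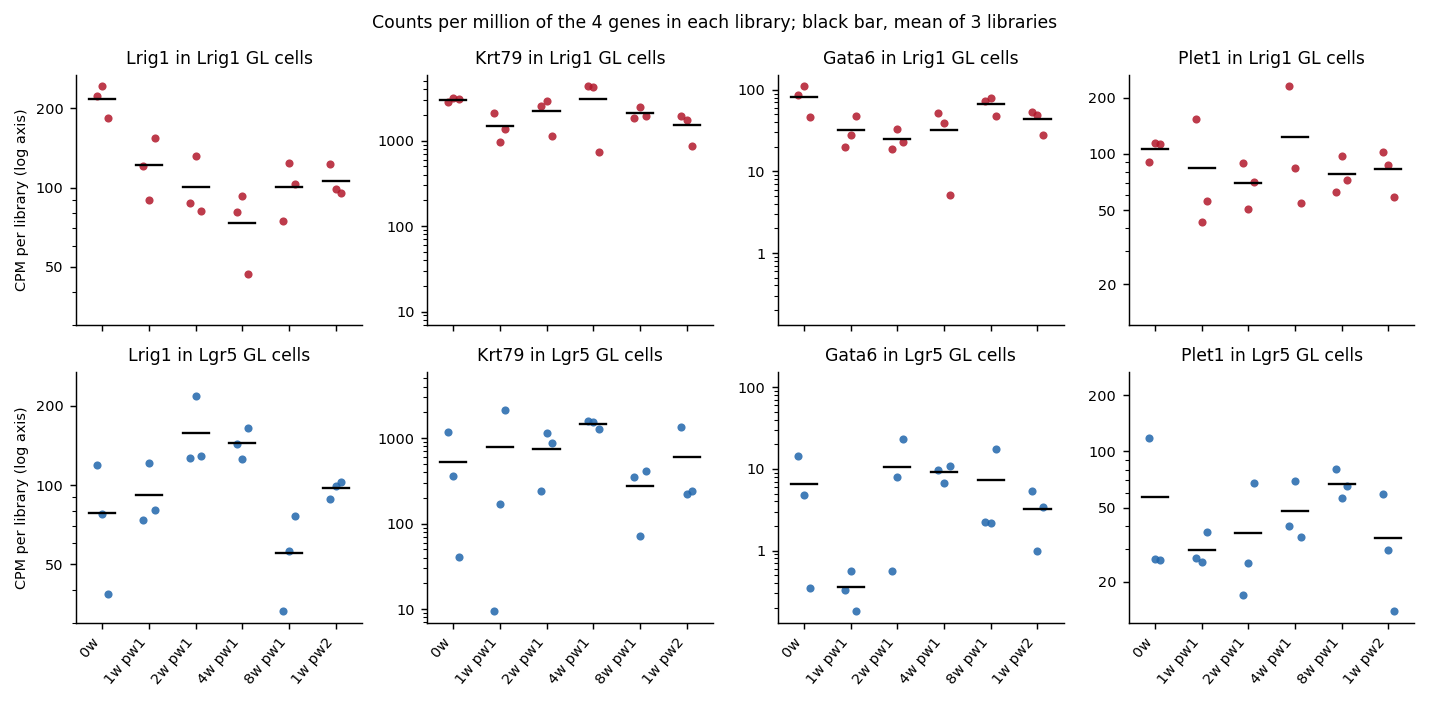
Level of Lrig1, Krt79, Gata6 and Plet1 in each of the 36 libraries, in CPM on a log axis, by time point and population; points are libraries and bars are means of 3. Lrig1 in Lrig1 GL cells is at 183 CPM or more in all 0w libraries and at or below 155 CPM in all later ones, and Gata6 in Lgr5 GL cells is at 1 count per library at 1w pw1.

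Lrig1, the gene whose locus labelled the upper follicle cells, stood lower after wounding than before it in every Lrig1 GL library. At 0w the 3 libraries held 224, 244 and 183 CPM, against 121, 89.4 and 155 CPM at 1w pw1 and 87.6, 132 and 81.1 CPM at 2w pw1. At 4w pw1 they held 80.7, 93.0 and 46.9 CPM, at 8w pw1 74.3, 124 and 103 CPM, and at 1w pw2 123, 98.8 and 95.4 CPM. All 15 later libraries lay below all 3 at 0w, a pattern shared by 82 of the 14306 genes tested (0.573%). The mean was 217 ± 30.8 CPM (SD, n = 3) at 0w and lowest at 4w pw1, at 73.5 ± 23.9 CPM.

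On the log2 scale Lrig1 differed from 0w by −0.83 (SE 0.333) at 1w pw1, −1.12 (SE 0.334) at 2w pw1, −1.56 (SE 0.339) at 4w pw1, −1.11 (SE 0.334) at 8w pw1 and −1.04 (SE 0.333) at 1w pw2. None of these passed an adjusted p under 0.05 in edgeR's quasi-likelihood test with Benjamini-Hochberg adjustment over all genes, with adjusted p of 0.362, 0.262, 0.165, 0.069 and 0.116 in that order. The test over the whole time course gave an adjusted p of 0.077 by the same method. At 4w pw1 the adjusted p was 0.00202 with DESeq2 and 0.00785 with edgeR's likelihood ratio test, so the call depends on the tool while the direction held in every alternative run. The markers of the bulge, which lies below the junctional zone, were also highest at 0w. Summed over 10 genes, they held 5839 to 9856 CPM at 0w and 807 to 5232 CPM at later times in Lrig1 GL libraries, with Krt15 lower by 3.28 on the log2 scale at 1w pw1 (adjusted p = 0.0316, same test). The part of these cells in the Lrig1 levels was not tested, and in bulk libraries fewer cells of a type and less RNA per cell cannot be told apart.

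Lrig1 in Lgr5 GL cells stood highest at 2w pw1 and 4w pw1. It held 119, 77.8 and 38.6 CPM at 0w, 73.7, 121 and 80.1 CPM at 1w pw1, and 126, 218 and 129 CPM at 2w pw1. Values then were 144, 126 and 165 CPM at 4w pw1, 33.1, 56.1 and 76.4 CPM at 8w pw1, and 88.7, 99.6 and 103 CPM at 1w pw2. The libraries of 2w pw1 and of 4w pw1 lay above all 3 at 0w, and those of the other times overlapped with 0w. Compared with 0w the log2 difference was 1.00 (SE 0.381, adjusted p = 0.434) at 2w pw1 and 0.88 (SE 0.383, adjusted p = 0.423) at 4w pw1 in edgeR's quasi-likelihood test, and the time course had an adjusted p of 0.157. The mean at 8w pw1, 55.2 ± 21.6 CPM (SD, n = 3), was the lowest of the 6 time points. Against 2w pw1 it differed by −1.51 and against 4w pw1 by −1.39 on the log2 scale, without overlap of libraries (8.09% and 6.64% of all genes lay below likewise), with adjusted p of 0.179 and 0.167 by that test. The bulge marker sum in these cells was 15733 to 22339 CPM at 0w, 3961 to 6556 CPM at 4w pw1 and 21502 to 23013 CPM at 8w pw1.

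**Figure D2:**
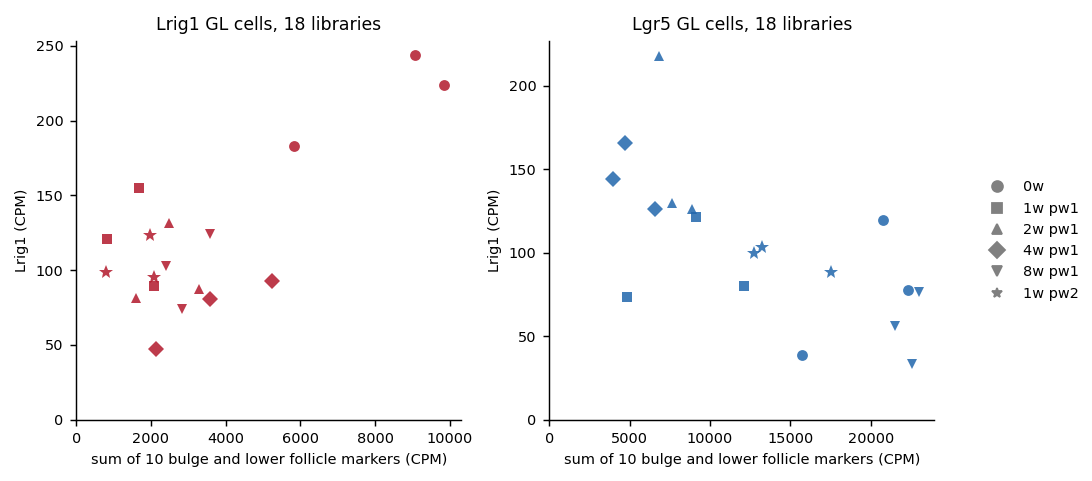
Lrig1 level in CPM against the summed level of 10 bulge marker genes in CPM, both on linear axes, 1 point per library, for Lrig1 GL and Lgr5 GL cells. In Lrig1 GL cells the 0w libraries are high on both axes, and in Lgr5 GL cells the 4w pw1 libraries combine 126 to 165 CPM of Lrig1 with bulge marker sums of at most 6556 CPM.

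Krt79, the infundibular keratin, had tight levels before wounding and wide ones after it in Lrig1 GL cells. The libraries held 2839, 3130.0 and 3033 CPM at 0w, 2126, 969 and 1370.2 CPM at 1w pw1, and 2525, 2944 and 1119 CPM at 2w pw1. They held 4361, 4220.3 and 727 CPM at 4w pw1, 1822, 2504 and 1946 CPM at 8w pw1, and 1959.9, 1741 and 862 CPM at 1w pw2. All libraries of 1w pw1, of 8w pw1 and of 1w pw2 lay below those of 0w, while at 4w pw1 replicates a and b lay above them and replicate c far below. The mean at 0w was 3001 ± 148 CPM and that at 4w pw1 3103 ± 2058 CPM (SD, n = 3 each). The largest log2 difference from 0w was −1.01 at 1w pw1 (edgeR's quasi-likelihood test, adjusted p = 0.474).

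Krt79 varied widely between Lgr5 GL libraries of the same time point, except at 4w pw1. At 0w the values were 1167, 362 and 40.3 CPM, at 1w pw1 9.46, 169 and 2153 CPM, and at 2w pw1 239, 1147 and 882 CPM. At 4w pw1 they were 1591, 1541 and 1269 CPM, at 8w pw1 355, 71.9 and 409 CPM, and at 1w pw2 1352, 225 and 241 CPM. The libraries at 4w pw1 were the closest together, with a mean of 1467 ± 173 CPM (SD, n = 3), and lay above all 3 at 0w. The log2 difference between them was 1.49, with an adjusted p of 0.724 in edgeR's quasi-likelihood test. At 1w pw1 the highest and the lowest Lgr5 GL library of the study stood side by side, replicates 3 and 1.

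Gata6, the transcription factor of the duct, was at its highest mean at 0w in Lrig1 GL cells and lowest at 2w pw1. It held 85.7, 112 and 46.8 CPM at 0w, 19.9, 28.3 and 48.0 CPM at 1w pw1, and 18.8, 32.7 and 22.6 CPM at 2w pw1. At 4w pw1 the levels were 51.8, 39.7 and 5.10 CPM, at 8w pw1 72.8, 80.001 and 47.7 CPM, and at 1w pw2 53.3, 49.4 and 28.3 CPM. The 2w pw1 libraries lay below all 3 at 0w, and those of every other time overlapped with 0w. The differences from 0w were −1.33 (SE 0.621) at 1w pw1 and −1.72 (SE 0.625) at 2w pw1 on the log2 scale, with adjusted p of 0.44 and 0.37 in edgeR's quasi-likelihood test. At 8w pw1 the difference from 0w was −0.29 (adjusted p = 0.812, same test).

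Gata6 was close to the limit of detection in Lgr5 GL cells. Its counts were 64, 23 and 1 at 0w (14.5, 4.77 and 0.345 CPM), 1, 1 and 1 at 1w pw1 (0.326, 0.566 and 0.181 CPM), and 4, 37 and 108 at 2w pw1 (0.564, 7.95 and 23.5 CPM). They were 10, 16 and 16 at 4w pw1 (9.72, 6.71 and 10.8 CPM), 5, 9 and 115 at 8w pw1 (2.21, 2.19 and 17.4 CPM), and 41, 6 and 9 at 1w pw2 (5.32, 1.00 and 3.39 CPM). The 1w pw1 libraries were at the bottom, and 4 of the 18 libraries had 3 counts or fewer. From summed counts scaled to depth, 0w stood 25.1 times above 1w pw1, with a 95% counting interval of 8.30 to 124. The same ratio to 1w pw1 was 31.5 (10.6 to 154) at 2w pw1, 29.6 (9.46 to 149) at 4w pw1, 34.3 (11.5 to 169) at 8w pw1 and 11.8 (3.84 to 59.0) at 1w pw2. Single libraries held most of the counts at 4 of these times. Without replicate a at 0w the ratio was 10.7, without replicate c at 2w pw1 12.1, without replicate c at 8w pw1 7.60 and without replicate 1 at 1w pw2 5.99, while at 4w pw1 the libraries were more even. These intervals cover counting error only, since reads were not tagged by molecule. Across replicates, the comparison of 1w pw1 with 0w had an adjusted p of 0.137 in edgeR's quasi-likelihood test. Over the other 9 settings run the adjusted p lay between 0.0282 and 0.422, and 2 of them called it. Without 1 library the quasi-likelihood test gave 0.0703 to 0.353 and called it in 0 of 18 fits.

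Plet1, the surface protein of the upper isthmus, had similar means at the 6 time points in Lrig1 GL cells, with wide spread at 1w pw1 and 4w pw1. It held 90.3, 115 and 113 CPM at 0w, 154, 43.0 and 55.9 CPM at 1w pw1, and 89.4, 50.4 and 71.0 CPM at 2w pw1. The values were 232, 84.2 and 54.6 CPM at 4w pw1, 62.3, 97.7 and 72.9 CPM at 8w pw1, and 103, 86.8 and 58.5 CPM at 1w pw2. The 2w pw1 libraries lay below those of 0w, while at 4w pw1 replicate a was the highest of all 18 libraries and replicate c was below all 3 at 0w. Log2 differences from 0w ran from −0.59 to 0.22, with adjusted p of at least 0.631 in edgeR's quasi-likelihood test. Replicate a of Lgr5 GL cells at 0w, with 118 CPM, was more than 4 times the other two, at 26.6 and 26.2 CPM. Later levels were 26.7, 25.5 and 37.2 CPM at 1w pw1, 17.1, 25.3 and 67.7 CPM at 2w pw1, and 39.9, 69.1 and 35.0 CPM at 4w pw1. At 8w pw1 they were 80.4, 56.1 and 65.2 CPM and at 1w pw2 59.5, 29.5 and 13.9 CPM. All 5 later times overlapped with 0w, and without that 0w replicate a the log2 differences turned from negative to positive, to 0.17 at 1w pw1, to 0.47 at 2w pw1, to 0.87 at 4w pw1 and to 0.40 at 1w pw2.

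Over the 4 genes, none passed the test against 0w (adjusted p under 0.05 with a log2 difference over 1 in size) at any of the 5 later times in Lrig1 GL cells. The share of all genes that passed was 0.217%, 0%, 0.0419%, 2.82% and 1.23% from 1w pw1 to 1w pw2. There were 8 unadjusted p under 0.05 among these tests (8.37% to 22.9% of all genes by time point), and the number of calls was 0 with edgeR's quasi-likelihood test, 2 with its likelihood ratio test, 4 with DESeq2 and 0 with limma-voom. The median log2 difference of the 4 genes was −0.92, −0.85, −0.65, −0.49 and −0.94 in time order, whereas that of all genes lay between −0.06 and −0.01. All later libraries lay below all 3 at 0w for 2 genes at 1w pw1 (6.4% of all genes), 3 at 2w pw1 (5.25%), 1 at 4w pw1 (5.14%), 2 at 8w pw1 (12.8%) and 2 at 1w pw2 (10.4%). Krt79 at 4w pw1 (0.05) and Plet1 at 4w pw1 (0.22) were the only positive log2 differences.

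In Lgr5 GL cells 0 of the 4 genes passed against 0w with edgeR's quasi-likelihood test and with limma-voom, and 1, Gata6 at 1w pw1, with the likelihood ratio test and with DESeq2. The share of all genes called was 1.29%, 0%, 0.155%, 0% and 0%. There were 3 unadjusted p under 0.05 for the members, against 18.6%, 8.79%, 10.7%, 5.94% and 6.42% of all genes in time order. Without 1 library the sign of Krt79, Gata6 or Plet1 turned at each of the 5 times. The medians over the 4 genes were −0.35, 0.61, 0.67, −0.17 and −0.25 on the log2 scale, with medians over all genes from −0.08 to 0.03. Lrig1 at 2w pw1 and Lrig1 and Krt79 at 4w pw1 lay above 0w without overlap, as did 7.44% and 6.62% of all genes at those times. The time course test called 0 of the 4 genes in either population, with 1.63% of all genes called for Lrig1 GL cells and 1.13% for Lgr5 GL cells. Its only unadjusted p under 0.05 was that of Lrig1 in each population (20.5% and 16.9% of all genes), which DESeq2 and the likelihood ratio test called and limma-voom did not. Among the 10 pairs of later time points edgeR's quasi-likelihood test called no member in either population (2 unadjusted p under 0.05 for Lrig1 GL and 7 for Lgr5 GL cells, against 5.28% to 22.1% and 3.83% to 22.9% of all genes by pair). For all genes the share called was 0.356% between 1w pw1 and 8w pw1, 0.461% between 2w pw1 and 8w pw1, 3.72% between 4w pw1 and 8w pw1, 0.00699% between 8w pw1 and 1w pw2, and 0% in the other Lrig1 GL pairs. With Lgr5 GL cells it was 1.84%, 3.15%, 1.33% and 0.266% for 2w, 4w and 8w pw1 and 1w pw2 against 1w pw1, 0.0555% between 2w pw1 and 8w pw1, 0.327% between 4w pw1 and 8w pw1, and 0% otherwise. Of the Lgr5 GL pairs, 5 were called by DESeq2 and by the likelihood ratio test and 2 by limma-voom, against 0 by each of these in Lrig1 GL cells.

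**Figure D3:**
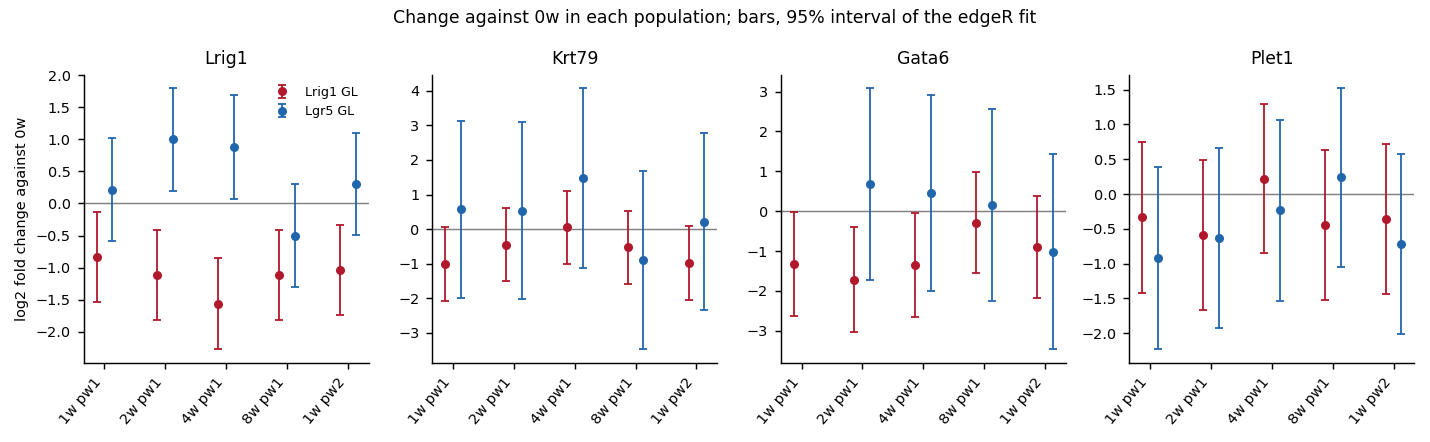
Log2 difference from 0w with its 95% interval for each of the 4 genes at the 5 later time points, in Lrig1 GL and Lgr5 GL cells. No comparison passed the test, Lrig1 in Lrig1 GL cells lies below 0 throughout (−0.83 to −1.56), and Gata6 at 1w pw1 in Lgr5 GL cells is not drawn because that group held 1 count per library.

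By mean level, 0w was highest for Lrig1 and for Gata6 in Lrig1 GL cells, and 4w pw1 for Krt79 and Plet1. In Lgr5 GL cells 2w pw1 was highest for Lrig1 and Gata6, 4w pw1 for Krt79 and 8w pw1 for Plet1. Neighbouring time points in these orders overlapped in 19 of 20 cases for Lrig1 GL cells and 18 of 20 for Lgr5 GL cells. The orders were made from the same means, so neighbours are close by construction. The exceptions were Lrig1 between 0w and 1w pw1 in Lrig1 GL cells, and for Lgr5 GL cells Lrig1 between 4w pw1 and 1w pw2 and Gata6 between 1w pw2 and 1w pw1. None of these 3 differences passed edgeR's quasi-likelihood test (adjusted p = 0.362, 0.895 and 0.268). Of all genes, 6.4%, 6% and 13.7% were apart in the same direction in these comparisons.

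The 2 populations were compared in 1 fit, in CPM on a joint scale. Of 18865 genes listed in both tables, 16153 passed the filter on low counts over all 36 libraries and were tested. Mouse line, sort and table go with the population throughout, so these cannot be told apart from it. The median difference over all genes lay between −0.12 and −0.03 on the log2 scale at the 6 time points, and a fit without mitochondrial genes and Gm12415 gave the same number of member calls, 4. Before wounding, 3 of the 4 genes, Lrig1, Krt79 and Gata6, stood higher in every Lrig1 GL library than in any Lgr5 GL library, against 6.75% of all genes. Lrig1 held 193, 212 and 163 CPM against 133, 86.1 and 43.1 CPM, Krt79 2454, 2718 and 2696 CPM against 1303, 401 and 45.04 CPM, and Gata6 74.1, 97.0 and 41.6 CPM against 16.2, 5.28 and 0.385 CPM. The log2 differences were 1.11 (SE 0.353), 2.17 (SE 1.04) and 3.26 (SE 0.983), none past an adjusted p of 0.05 in edgeR's quasi-likelihood test (0.0851, 0.275 and 0.0675). Without Lgr5 GL replicate a at 0w, Lrig1 (1.57, adjusted p = 0.0324) and Gata6 (4.60, adjusted p = 0.0467) passed. Plet1 overlapped between the populations at 0w, with a log2 difference of 0.55 (adjusted p = 0.68). At 0w 2.9% of all genes were called.

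At 4w pw1 Lrig1 was lower in the cells labelled through its own locus than in Lgr5 GL cells. It held 71.5, 82.0 and 41.5 CPM in Lrig1 GL and 169.6, 144 and 189.7 CPM in Lgr5 GL cells. The Lrig1 GL libraries all lay below the Lgr5 GL ones (13.9% of all genes), and the log2 difference of −1.37 (SE 0.360) passed edgeR's quasi-likelihood test at an adjusted p of 0.0285, where 3.64% of all genes were called. The call was lost without any 1 of the Lrig1 GL replicates at 4w pw1 or of Lgr5 GL replicates a and c (adjusted p 0.0531 to 0.144). At 2w pw1 they also lay below (14.4% of all genes), with a log2 difference of −0.99 (SE 0.353, adjusted p = 0.136). Lrig1 differed by 0.04 at 1w pw1, by 0.58 at 8w pw1 and by −0.19 at 1w pw2 on the log2 scale, with adjusted p of 0.967, 0.279 and 0.792.

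Gata6 was the gene most often called between populations, always with the Lrig1 GL level higher. At 1w pw1 it held 17.3, 25.0 and 41.6 CPM in Lrig1 GL and 0.374, 0.643 and 0.199 CPM in Lgr5 GL cells, and the ratio of depth-scaled counts was 98.2 (95% counting interval 33.0 to 482), with an adjusted p of 0.00652 in edgeR's quasi-likelihood test and 3.88% of all genes called. At 8w pw1 the levels were 66.8, 74.2 and 43.3 CPM against 2.53, 2.43 and 19.0 CPM, a log2 difference of 2.89 (SE 0.966, adjusted p = 0.0457, 12.5% of all genes called). At 1w pw2 they were 47.7, 45.1 and 25.8 CPM against 5.93, 1.12 and 3.86 CPM, a log2 difference of 3.43 (SE 1.00, adjusted p = 0.0348, 6.83% of all genes called). At none of the 3 times did the populations overlap, as for 11.1%, 19% and 17% of all genes that were higher in every Lrig1 GL library. The call at 1w pw1 held without each library in turn. That at 8w pw1 was near the threshold and held in 8 of the 36 fits without 1 library (log2 difference 2.43 to 4.63, adjusted p 0.0161 to 0.18), with the highest difference without Lgr5 GL replicate c of that time. It held without Lgr5 GL replicates a or c of 0w, a or c of 2w pw1, c of 8w pw1 or 2 of 1w pw2, and without Lrig1 GL replicates 1 of 0w or c of 4w pw1, and was lost without any other. The call at 1w pw2 was lost without Lrig1 GL replicates 1 or 2 or without any Lgr5 GL replicate at that time (adjusted p 0.066 to 0.151). At 2w pw1 and 4w pw1 the log2 differences were 0.89 and 1.45 and were not called.

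Krt79 was higher in Lrig1 GL cells by 2.62 on the log2 scale at 8w pw1 (SE 1.06, adjusted p = 0.098 with edgeR's quasi-likelihood test). Its levels there were 1671, 2323 and 1768 CPM against 407, 79.8 and 448 CPM without overlap (19% of all genes were higher likewise). Its differences at the 4 other times after wounding were 0.59 to 1.21. Plet1 differed by −0.08 to 1.12 over the 6 time points and was called at none. At 2w pw1 1.9% of all genes were called between populations.

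The sebaceous and interfollicular markers differed between the populations too. At 0w the differentiated interfollicular epidermis markers summed to 4699 to 19974 CPM in Lrig1 GL and 386 to 1667 CPM in Lgr5 GL libraries, and the sebaceous markers to 644 to 2569 CPM and 119.5 to 268 CPM, each on the scale of its own population. The part of these cells in the differences of Krt79 and Gata6 was not tested.

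**Figure D4:**
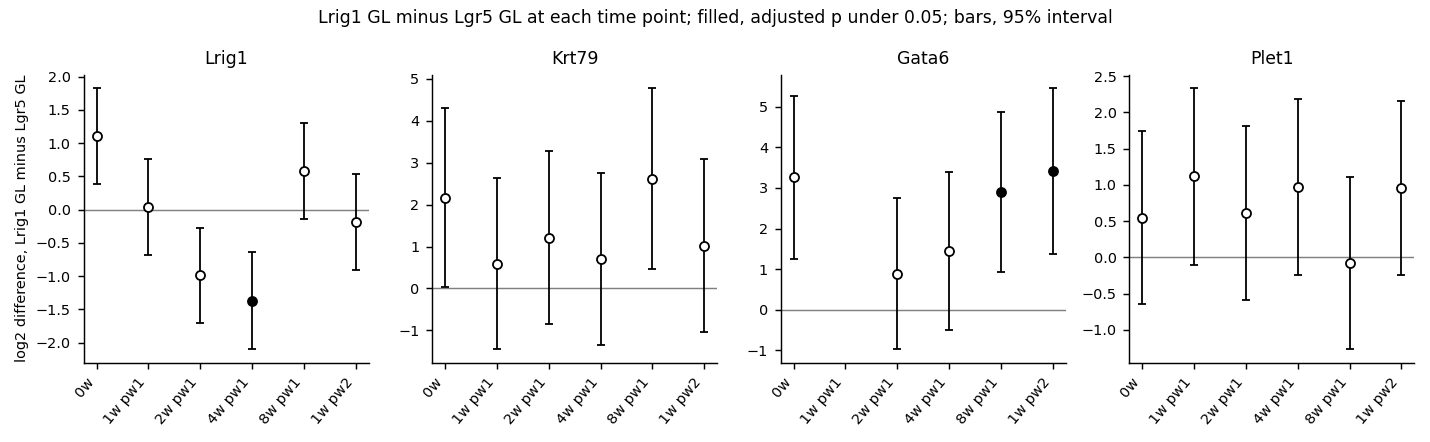
Log2 difference between Lrig1 GL and Lgr5 GL cells, with its 95% interval, for the 4 genes at the 6 time points, with filled symbols where the test passed. Lrig1 goes from 1.11 at 0w to −1.37 at 4w pw1, while Gata6 is positive at all times drawn, and its value at 1w pw1 is left out because the Lgr5 GL group held 1 count per library.

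The difference between the populations in the change from 0w was tested as an interaction. For Lrig1 at 4w pw1 it was −2.48 on the log2 scale (SE 0.504, adjusted p = 0.0422 with edgeR's quasi-likelihood test), 1 of 15 genes called (0.0929% of those tested). Lrig1 stood lower than at 0w in 3 of 3 Lrig1 GL libraries and higher in 3 of 3 Lgr5 GL libraries at that time. At 2w pw1 the same contrast was −2.10 (SE 0.499, adjusted p = 0.15) while it was −1.07 at 1w pw1, −0.53 at 8w pw1 and −1.30 at 1w pw2 (adjusted p = 0.31, 0.615 and 0.269). No other member was called in these contrasts, where 4 unadjusted p were under 0.05 in all (9.34% to 17.6% of all genes by contrast) and the share of all genes called was 0.0495% at 1w pw1, 0% at 2w pw1, 1.11% at 8w pw1 and 0.155% at 1w pw2. The call at 4w pw1 was near the threshold: it held in 14 of 36 fits without 1 library, and over all 36 the value lay between −2.88 and −2.15. The call was lost without any 1 of 22 libraries (adjusted p 0.0508 to 0.129). In Lrig1 GL cells these were replicates 1 and 2 of 0w, 2 of 1w pw1, a of 2w pw1 and every replicate of 1w pw2, 4w pw1 and 8w pw1. Lgr5 GL libraries among the 22 were replicates b and c of 0w, b of 2w pw1, all of 4w pw1, b of 8w pw1 and 2 and 3 of 1w pw2. Between 1w pw1 and 1w pw2, the times 1 week after the first and the second injury, the change in Lrig1 differed between populations by −0.23 (adjusted p = 0.901, 0.0557% of all genes called).

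Across the 18 libraries of a population the members varied together in part. Of 12 relations on log2 CPM, 11 were positive and 4 passed Benjamini-Hochberg adjustment of the permutation p. In Lrig1 GL libraries the Pearson correlation of Lrig1 with Gata6 was 0.69 (permutation p = 0.00175, adjusted p = 0.0144), with Spearman's rho of 0.50 (p = 0.0365, adjusted p = 0.0904), an r of 0.56 without the 2 libraries farthest from the median and 0.72 within time points. Krt79 with Plet1 had r = 0.66 (permutation p = 0.0024, adjusted p = 0.0144), rho = 0.66 (p = 0.00409, adjusted p = 0.0491), 0.62 without the 2 farthest libraries and 0.66 within time points. For Krt79 with Gata6 in the same cells r was 0.57 (permutation p = 0.0125, adjusted p = 0.0375) and rho 0.41 (p = 0.0902, adjusted p = 0.122), and r was 0.32 without the 2 libraries farthest from the median and 0.72 within time points. In Lgr5 GL libraries Krt79 with Gata6 had r = 0.59 (permutation p = 0.00921, adjusted p = 0.0368), rho = 0.52 (p = 0.0302, adjusted p = 0.0904), and 0.41 without the 2 farthest libraries, against 0.50 within time points. The 3 libraries of each time point share it, so the 18 are not independent of time. Without Lrig1 GL replicate c at 4w pw1, the lowest Lrig1 GL library in Lrig1, Krt79 and Gata6, none of the 12 passed. In Lrig1 GL cells the adjusted permutation p was then 0.0694 for Lrig1 with Gata6, 0.0553 for Krt79 with Plet1 and 0.204 for Krt79 with Gata6. The Lgr5 GL relation of Krt79 with Gata6 uses no Lrig1 GL library, so only its adjustment over the 12 relations changed.

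**Figure D5:**
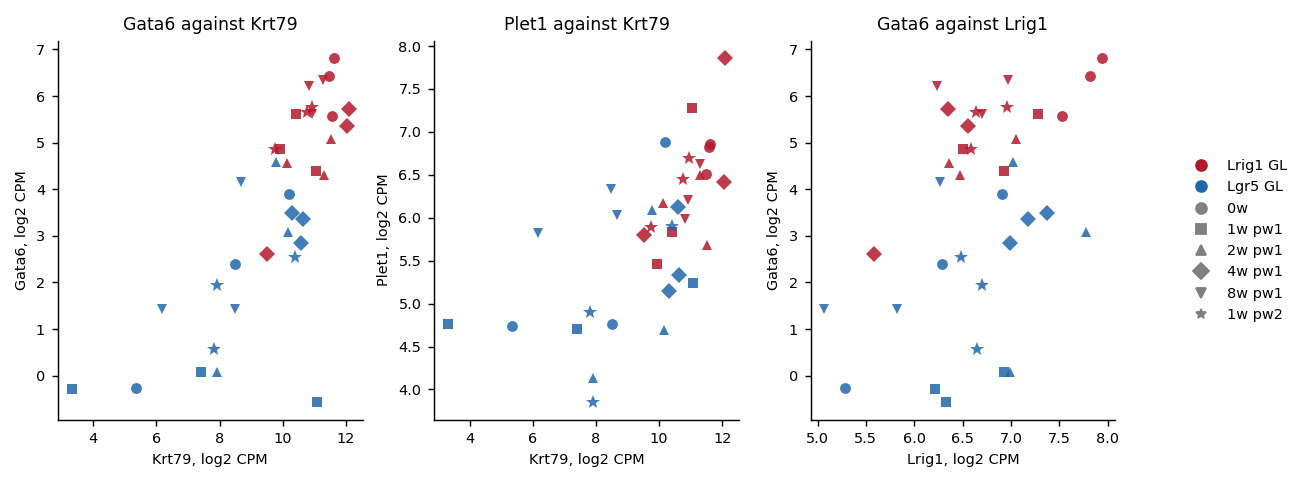
Library by library levels, in log2 CPM, of 3 pairs of genes whose relation passed adjustment in at least 1 population, coloured by population, with a symbol for each time point and 1 point per library. Lrig1 against Gata6 (r = 0.69) and Krt79 against Plet1 (r = 0.66) in Lrig1 GL cells slope upward, and Lrig1 GL replicate c at 4w pw1 has the lowest Gata6 level of the Lrig1 GL libraries.

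Genes with the most similar pattern were sought among 9214 genes by the lower of the Pearson correlations over 18 libraries in each population, which describe shared libraries and carry no test. Nearest to Krt79 were Psapl1 (0.73 for Lrig1 GL and 0.70 for Lgr5 GL cells), Cst6, a cysteine protease inhibitor of cornifying epithelia (0.72 and 0.67), and AC116527.2 (0.86 and 0.67). Cst6 (0.68 and 0.71), AC116527.2 (0.69 and 0.65) and the tubulin Tubb2a (0.67 and 0.63) were nearest to Plet1, so 2 of 3 names recurred. For Gata6 they were Sipa1l1 (0.71 and 0.74), the tight junction gene Cldn1 (0.80 and 0.67) and the adhesion molecule Alcam (0.78 and 0.65). For Lrig1 they were Acaca, an enzyme of fatty acid synthesis (0.61 and 0.66), the Wnt inhibitor Apcdd1 (0.60 and 0.64) and Spen (0.59 and 0.60). With Spearman's correlation 5 of the 12 names stayed.

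Other genes of the upper pilosebaceous unit, a list of 12 that were all tested, had mostly negative differences from 0w in Lrig1 GL cells. On the log2 scale these were negative for 9, 9, 8, 9 and 8 of 12 in time order, with medians of −0.50, −0.34, −0.56, −0.65 and −0.47. The medians over all genes lay between −0.06 and −0.01. The gene that passed against 0w was Sostdc1, a secreted antagonist of BMP and Wnt signalling, from 1032 to 1059 CPM at 0w to 329 to 508 CPM at 1w pw2. It fell by 1.23 on the log2 scale (SE 0.294, adjusted p = 0.0485 with edgeR's quasi-likelihood test), where 1.23% of all genes were called. From 4w pw1 to 8w pw1 the infundibulum marker Postn rose by 1.52 (SE 0.387, adjusted p = 0.0376, same test), where 3.72% of all genes were called. For Lgr5 GL cells 0 of 12 passed against 0w, and the medians were 0.28, −0.39, 0.07, −0.03 and −0.32. Between the populations at 0w, 8 of 12 were higher in Lrig1 GL cells, with a median of 1.28 against −0.04 over all genes. At that time 2 were called, with 2.9% of all genes: the surface antigen Ly6a (3.52, adjusted p = 0.0266) and the defensin Defb6 (3.86, adjusted p = 0.0458). In Lgr5 GL cells Ly6a was lower at 4w pw1 than at 1w pw1 by 4.57 (adjusted p = 0.0448, same test), where 3.15% of all genes were called.

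Among 13 Lrig family, ErbB and related receptor genes, of which 10 were tested for Lrig1 GL and 13 for Lgr5 GL cells, Met, the receptor of hepatocyte growth factor, rose in Lrig1 GL cells. It held 10.6 to 25.0 CPM at 0w, 45.03 to 131 CPM at 8w pw1 and 63.7 to 157 CPM at 1w pw2, with log2 differences of 2.55 (SE 0.655, adjusted p = 0.0459) and 2.78 (SE 0.660, adjusted p = 0.0485) in edgeR's quasi-likelihood test. No other gene of that list was called against 0w in either population. Of 5 other GATA factors only Gata3, a regulator of epidermal and hair follicle differentiation, passed the filter. It fell by 1.79 on the log2 scale in Lgr5 GL cells at 1w pw1 (SE 0.283, adjusted p = 0.0136, same test), from 135 to 178 CPM at 0w to 32.9 to 59.4 CPM, and stood higher than that at each of the 4 later times (1.53 to 2.06 on the log2 scale). In Lrig1 GL cells its difference at 1w pw1 was −0.66 and was not called.

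Of the other type II keratins, Krt6b, a keratin of activated and wounded epidermis, rose at 1w pw1 in both populations. Its log2 difference from 0w was 4.07 in Lrig1 GL cells (SE 0.681, adjusted p = 0.0157) and 2.57 in Lgr5 GL cells (adjusted p = 0.0454) in edgeR's quasi-likelihood test, and 3.29 (adjusted p = 0.026) in Lrig1 GL cells at 1w pw2. Krt1, the keratin of the suprabasal interfollicular epidermis, was higher in Lrig1 GL than in Lgr5 GL cells at 0w by 7.31 (SE 1.27, adjusted p = 0.00135). Krt79 itself passed none of these contrasts.

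Reads of overlapping genes could enter these counts, since the counting options that the study lists name none for strand. Slc25a26, which overlaps Lrig1 on the opposite strand, had at most 30 counts in Lrig1 GL and 61 in Lgr5 GL libraries, and Plet1os, antisense to Plet1, had at most 10 in Lrig1 GL libraries.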

How the data were processed

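Counts per gene were used as the authors deposited them, in 1 table per population. Per the submitters' processing notes, reads were trimmed with Trim Galore 0.5.0, aligned with HISAT2 to GRCm38 and counted with featureCounts, with GENCODE M20 gene names as the methods state. The counting options the methods list name none for strand. No column belonged to another series (0 columns). The column numbers of 15 libraries matched a label and 21 did not, and the latter are named by the letters a, b and c within their group.

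Each table was fitted in edgeR 4.0.16 (R 4.3.3) with TMM scaling, filterByExpr (minimum count 10) and the quasi-likelihood test with Benjamini-Hochberg adjustment over all 14306 Lrig1 GL or 18025 Lgr5 GL genes. All 6 time points entered 1 fit. Contrasts against 0w were called at an adjusted p under 0.05 with a log2 difference over 1 in size, and all others at an adjusted p under 0.05. The populations and the interaction were tested in 1 joint fit. Fold changes used a prior count of 0.125, and log2 CPM for correlations a prior count of 2. Alternatives were the likelihood ratio test, DESeq2 1.42.0, limma-voom (limma 3.58.1), no filter, 2 surrogate variables (sva 3.50.0), a GC trend removed, other scalings, a replicate block and each library left out. Permutation tests of correlations drew 100000 permutations, two-sided. With 3 libraries against 3, an exact permutation test cannot give a p below 0.1. The scripts were tested on simulated data.

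The members and gene lists were chosen with earlier results of these data known. The named genes were the 4 members, some of the list genes that passed a test, and the 3 genes nearest in pattern to each member. Other list genes passed a test and are not named, so the list genes shown are not a complete set of calls. Intervals of count ratios cover counting error only, and those of log2 differences come from the fits. Count ratios without the library that held most of the counts were added after seeing the data.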

Additional observations from a re-analysis of the deposited data

Results flagged for a closer look

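The change in Lrig1 from 0w to 4w pw1 differed between the populations. The interaction was −2.48 on the log2 scale (edgeR's quasi-likelihood test, adjusted p = 0.0422): Lrig1 GL libraries went from a mean of 217 ± 30.8 to 73.5 ± 23.9 CPM and Lgr5 GL libraries from 78.6 ± 40.4 to 145 ± 19.7 CPM (SD, n = 3 each, each on its own population's scale). In the 9 other settings, leaving out libraries aside, it lay between −2.59 and −2.30, with an adjusted p from 0.000362 to 0.166, and was called in 5 of them.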

How the results depend on the processing

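The count of called members depended on the tool. In Lrig1 GL cells the time course gave 0 members with edgeR's quasi-likelihood test, 1 with its likelihood ratio test and 1 with DESeq2, and the contrasts with 0w gave 0, 2 and 4. For Lgr5 GL cells these were 0, 1 and 1 for the time course, 0, 1 and 1 for the contrasts with 0w, and 0, 5 and 5 for later pairs, where limma-voom gave 2. Between populations the 4 calls became 7 with the likelihood ratio test, 8 with DESeq2 and 2 with 2 surrogate variables. The 1 interaction call became 2 with the likelihood ratio test, 2 with DESeq2, and 0 with limma-voom, without the filter or with 2 surrogate variables. Among all genes, the Lrig1 GL time course called 233, against 1999 (likelihood ratio test), 1880 (DESeq2), 117 (limma-voom), 149 (no filter), 9 (2 surrogate variables) and 58 (GC trend removed). For Lgr5 GL cells it was 203, against 1975 (likelihood ratio test), 1684 (DESeq2), 353 (limma-voom) and 78 (2 surrogate variables). For the 4w pw1 interaction the 15 genes called became 149, 168, 4 and 6 with the likelihood ratio test, DESeq2, limma-voom and no filter. The cause was not tested in any of these.

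Leaving out each library in turn kept the number of called members at 0 within each population, 2 to 6 between populations, 0 to 1 for the interaction and 0 to 7 for the relations. The relations were 7 without Lrig1 GL 1w pw1 replicate 3 or 4w pw1 replicates a or b and 0 without 4w pw1 replicate c. All genes called ranged from 47 to 477 in the Lrig1 GL time course, 89 to 294 in that of Lgr5 GL cells, and 0 to 41 for the 4w pw1 interaction.

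A fit with the replicate number as a block gave 0 calls between populations, 0 for the interaction, 16 genes in the Lrig1 GL time course, 46 in that of Lgr5 GL cells and 0 genes for the 4w pw1 interaction. The numbers do not pair the samples: the mean correlation of same-numbered deviations was −0.00644 over 33 pairs in Lrig1 GL and 0.00393 over 32 pairs in Lgr5 GL cells.

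Of 70 differences in the text and figures, 26 turned sign under at least 1 alternative. None of these was called as reported and no turned value was called. With limma-voom, differences from 0w turned for Krt79 at 4w pw1 (−0.30) and Plet1 at 4w pw1 (−0.15) in Lrig1 GL cells, and among Lgr5 GL cells for Krt79 at 1w pw1 (−0.84) and 1w pw2 (−0.41) and Gata6 at 2w pw1 (−0.27) and 8w pw1 (−0.41). Between populations it gave −0.065 for Lrig1 at 1w pw1 and 0.040 for Plet1 at 8w pw1. With 2 surrogate variables, Lrig1 GL differences from 0w were −0.25, 0.95 and 0.021 for Krt79 at 4w pw1, 8w pw1 and 1w pw2, and 0.62 for Gata6 at 8w pw1. Lrig1 differed between populations by −0.18 at 1w pw1 and its interaction between both 1-week times was 0.053. With the GC trend removed, these were −0.0072 for Krt79 at 4w pw1 and 0.18 for Gata6 at 8w pw1 in Lrig1 GL cells, 0.51 for Lrig1 between populations at 1w pw2 and 0.20 for that interaction. With the replicate block, Lgr5 GL differences from 0w were −0.18 and −0.12 for Krt79 at 1w pw1 and 1w pw2, and −0.11, −0.22 and −0.55 for Gata6 at 2w, 4w and 8w pw1. Plet1 then differed between populations by −0.0078 at 0w and −0.21 at 2w pw1.

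Without 1 library, Lgr5 GL differences from 0w ran as follows. Krt79 lay between −2.58 and 1.92 at 1w pw1, −0.023 and 1.89 at 2w pw1, −1.46 and 0.45 at 8w pw1, and −1.18 and 1.59 at 1w pw2. Gata6 lay between −0.65 and 1.99 at 2w pw1, −0.13 and 1.75 at 4w pw1, −1.58 and 1.47 at 8w pw1, and −1.63 and 0.30 at 1w pw2. Plet1 lay between −1.28 and 0.17 at 1w pw1, −1.43 and 0.47 at 2w pw1, −0.64 and 0.87 at 4w pw1, −0.11 and 1.35 at 8w pw1, and −1.38 and 0.40 at 1w pw2. Lrig1 lay between −0.13 and 0.63 at 1w pw1 and −0.026 and 0.74 at 1w pw2. In Lrig1 GL cells at 4w pw1, Krt79 lay between −0.28 and 0.52 and Plet1 between −0.61 and 0.58. Between populations, Lrig1 at 1w pw1 lay between −0.13 and 0.32 and Plet1 at 8w pw1 between −0.30 and 0.077. The libraries whose absence turned a sign were Lgr5 GL replicates a, b and c of 0w, 1, 2 and 3 of 1w pw1, c of 2w pw1, a and c of 8w pw1 and 1 of 1w pw2, and Lrig1 GL replicates 3 of 1w pw1, a and b of 4w pw1 and a of 8w pw1.

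With the GC trend removed, Lrig1 passed between populations at 0w (1.48, adjusted p = 0.0111) and 8w pw1 (1.40, adjusted p = 0.0172) and not at 4w pw1 (−1.11, adjusted p = 0.0511). Low counts limit what can be read from Gata6 in Lgr5 GL cells, where 4 libraries held 3 counts or fewer. These were not the shallowest ones: replicates a and c of 4w pw1, with 1359006 and 1297798 counts in genes, held 10 and 16 counts of Gata6.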

Other observations

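For Krt79, libraries of 1 group differed most at 1w pw1 in Lgr5 GL cells, where replicate 3 held 2153 CPM of Krt79 with 1 count of Gata6, while replicate 1 held 9.46 CPM of Krt79, also with 1 count of Gata6.

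Pparg, the regulator of sebocyte differentiation, passed the same interaction test as Lrig1 at 4w pw1, at −6.12 on the log2 scale (edgeR's quasi-likelihood test, adjusted p = 0.0461). In Lrig1 GL cells it held 17.3 to 109 CPM at 0w and 1.49 to 2.55 CPM at 4w pw1, with an adjusted p of 0.0468 over the time course. The 4w pw1 levels were close to the limit of detection. A count of 3 corresponds to 1.49, 2.38 and 1.53 CPM in replicates a, b and c of that time, so the size of the difference rests on very few counts.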
